A study of Mus musculus with 2 samples.

Results

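Interstitial fibroblasts were taken as the cells of injured mouse kidneys with at least 5 unique molecular identifiers (UMIs, counted molecules) of Dcn, Col1a1, Col1a2 and Pdgfra together, fewer than 3 UMIs of the mural genes Rgs5, Myh11 and Ren1, and no UMI of Cdh5, Ptprc or Slc12a1, which mark endothelium, leukocytes and thick ascending limb. The rule selected 323 of 19478 retained cells (1.66%), 141 of 9452 in the control library and 182 of 10026 in the haplodeficient library. The cells were chosen by the measured levels of those 10 genes, which are given only as a description.

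The study profiled single kidney cells 14 days after ischaemia and reperfusion of 1 kidney, with 4 tamoxifen injections after the injury in both groups. The control mice carried no Cre (genotype Cre-), and whether they carried the floxed allele is not said in the labels. The haplodeficient mice carried Cdh5-CreERT2, a Cre recombinase that tamoxifen activates and that the endothelial cadherin promoter drives, and 1 floxed copy of Phd3 (Phd3f/+). Phd3, also named Egln3, encodes an oxygen-dependent prolyl hydroxylase. The Cre driver is endothelial, so a difference in fibroblasts is a difference in cells that the driver is not designed to target. Each group had 1 library, the number of animals in it is not said in the labels, and both libraries carry the same batch label. Differences between animals, preparations and genotypes therefore cannot be told apart, and no test between groups was run. Parentheses give 95% intervals, which cover counting error and nothing else.

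Fibroblasts of the kidney interstitium lie between tubules and capillaries and make the collagens, proteoglycans and glycoproteins of the matrix. After injury some take on myofibroblast features, with smooth muscle actin and more matrix. They also act as a niche, through chemokines, adhesion molecules, growth factors such as Kit ligand, and erythropoietin.

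The control library held 134190236 UMIs, with a median of 9160 UMIs per retained cell, and the haplodeficient library 114668145, with a median of 5861.5. The median mitochondrial share of retained cells was 10.2% in control and 2.72% in haplodeficient cells. Of the retained barcodes, 28 were present in both libraries. Proximal tubule cells made up 28.9% of retained control and 3.89% of retained haplodeficient cells, and leukocytes 9.96% and 26.7%, by simple marker rules. Barcodes of at most 100 UMIs, taken here as free RNA, differed the same way. Proximal tubule markers summed to 25786 counts per 1000000 UMIs (CPM) of free RNA in the control and 4701 CPM in the other library, and leukocyte markers to 1552 and 9401 CPM.

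Of retained control cells 1.49% (1.26 to 1.76) were selected, and of retained haplodeficient cells 1.82% (1.56 to 2.10), a difference of 0.324 percentage points (-0.042 to 0.689). With a mitochondrial limit of 25% in place of 50% the difference was -0.0084 points, with 139 of 7523 control and 182 of 9895 haplodeficient cells selected. Among cells of 2000 UMIs or more it was 0.425 points (0.014 to 0.837). With the rule applied after thinning to 2000 UMIs it was 0.421 points (0.058 to 0.787). Cells with 5 or more marker UMIs numbered 209 and 328, and 68 and 146 of them failed the other conditions. Cells at the threshold often carried genes of other cell types. In the haplodeficient library, 17 cells held 4 marker UMIs and 7 held 5, and Wt1, a gene of podocytes and mesothelium, was detected in 47.1% and 71.4% of them. In the control library, 7 cells held 4 marker UMIs and 4 held 5, and Epcam, an epithelial gene, was detected in 85.7% and 50% of them. Col3a1 was detected in none of the cells with exactly 5.

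Clustering the selected cells of both libraries together gave 6 subclusters, and 2 of these went against the fibroblast label, subcluster 2 only in part. The 71 cells of subcluster 2 were led by Igfbp2, Chrm3, Clic5, Tenm2 and Stc2 against the other selected cells. Against the rest of the kidney, their 10 leading genes included Wt1 and Foxd1 and none of the fibroblast markers Col3a1, Tcf21, Lum or Fbln1. The first of the 10 was Cdh11, at 638 CPM against 13.4 CPM in cells that were not selected. The matrix genes Bgn and Tnc and the myofibroblast gene Tagln were also among them, so these leading genes were mixed. Wt1 reached 386 CPM in the control and 274 CPM in the haplodeficient cells of subcluster 2, where Pdgfra had 0 and 13 UMIs, Tagln 3348 and 4472 CPM, and Foxd1, a gene of stromal progenitors and podocytes, 282 and 166 CPM. The 36 cells of subcluster 5 were led by Atp6v1g3, Spink8, Slc26a4 and Plet1, genes of collecting duct and other epithelium. Epcam was at 610 and 1036 CPM there, and their median was 23937 UMIs in the control and 33868 UMIs in the haplodeficient library, against 4227.5 and 5027.5 in subcluster 1. A doublet score marked 7 of 23 and 4 of 13 cells of subcluster 5. Together, subclusters 2 and 5 held 61.3% of the UMIs of selected control cells and 64.1% of those of selected haplodeficient cells.

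**Figure D1:**
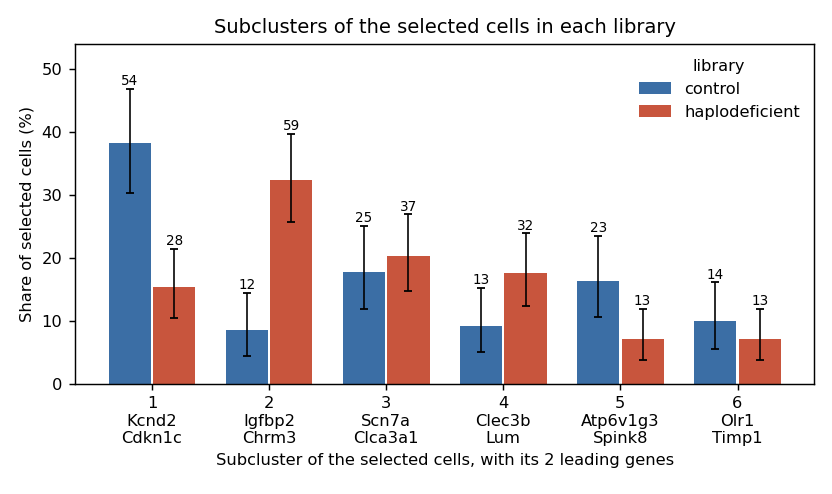
Share of the selected cells in each subcluster (bars, %, from 0) for the control and haplodeficient libraries, with exact binomial 95% intervals and the number of cells above each bar. Subcluster 1 holds 38.3% of control and 15.4% of haplodeficient selected cells, and subcluster 2 holds 8.51% and 32.4%.

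Cells of subclusters 1, 3, 4 and 6 carried fibroblast genes and are called Col3a1-rich cells here. Col3a1, which encodes type III collagen and took no part in the selection, was detected in 103 of 106 control and 108 of 110 haplodeficient Col3a1-rich cells. In each of the 4 subclusters the 10 leading genes against the rest of the kidney held 1 to 4 of the fibroblast markers and no marker of another cell type. Subclusters 3 and 6 held Col3a1 alone. This was also so in subcluster 5, so the count of markers does not set the 4 apart from it. Col3a1 was at 307 CPM in subcluster 5 and at 2946 to 3842 CPM in the 4. The choice of these 4 subclusters was made after their genes had been seen, and clustering used the same genes, so these levels are descriptions. As a share of retained cells the Col3a1-rich cells made up 1.12% (0.919 to 1.35) in the control library and 1.10% (0.903 to 1.32) with haplodeficiency. Their medians were 4657 and 6367.5 UMIs per cell, and their sums 556935 and 781557 UMIs.

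Compared with all other retained cells, 354 of 3366 genes (10.5%) were at least 4-fold higher in Col3a1-rich cells in both libraries, as were 174 of 3855 genes (4.51%) in all selected cells. Col3a1 was at 3155 and 3574 CPM in the control and haplodeficient library, against 6.20 and 15.5 CPM in other retained cells. Mgp, which encodes the matrix Gla protein, an inhibitor of calcification, was at 22441 and 21090 CPM. Tcf21, a transcription factor of renal stroma, was at 445 and 490 CPM, against 1.23 and 3.62 CPM elsewhere. Other genes that stood high over the rest of the kidney in both libraries were Kcnd2 and Csmd1, the complement regulator gene Serping1, the matrix genes Col6a3, Lama2, Spon1, Col15a1 and Bgn, and Cygb, Cpxm1 and Colec12. Of the selection genes, Dcn was at 1334 and 1775 CPM, Col1a1 at 2492 and 3173 CPM, Col1a2 at 3501 and 3947 CPM and Pdgfra at 625 and 493 CPM.

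**Figure D2:**
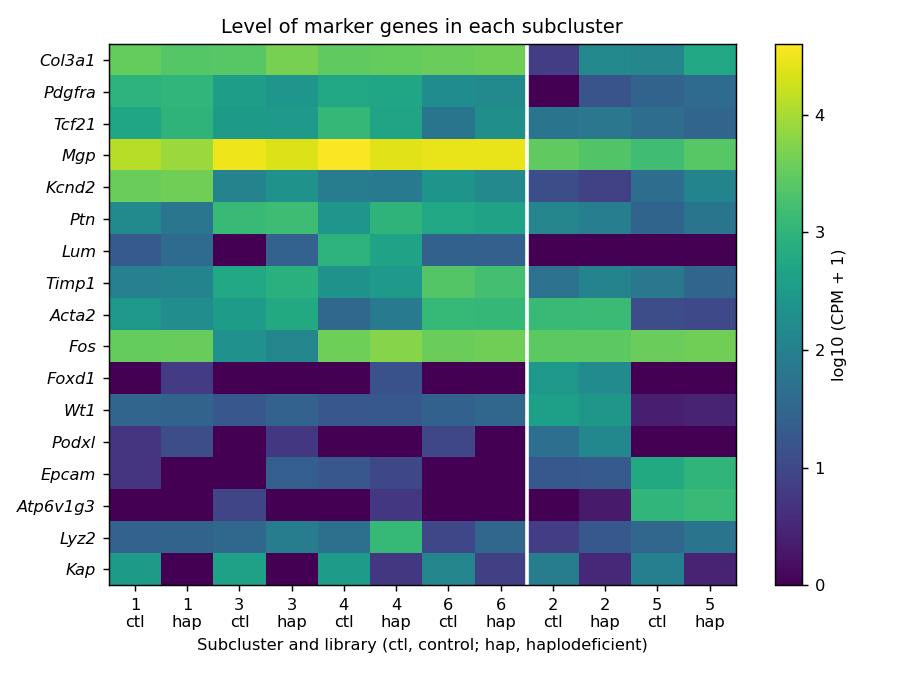
Level of 17 genes, as log10 of CPM plus 1 (colour), in each subcluster and library. Col3a1, Tcf21 and Mgp are high in subclusters 1, 3, 4 and 6 (left of the white line), Wt1, Foxd1 and Podxl in subcluster 2, and Epcam and Atp6v1g3 in subcluster 5.

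The 4 subclusters of Col3a1-rich cells differed in matrix and signalling genes. Subcluster 1, with 82 cells, was led by the potassium channel gene Kcnd2, by Cdkn1c, the gene of a cell cycle inhibitor, by Rxfp1, which encodes a relaxin receptor, and by Adamtsl1 and Alx1. It had the highest Cxcl12, the gene of a chemokine that retains CXCR4-bearing leukocytes, at 698 and 805 CPM. Subcluster 3, with 62 cells, was led by Scn7a, Clca3a1, Ptn, Thbs2 and Ano4. It stood apart in the immediate early gene Fos, at 213 and 126 CPM against 3269 and 3449 CPM in subcluster 1. Subcluster 3 also held UMIs of Schwann cell markers, 254 and 108 CPM over 5 genes.

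Subcluster 4, with 45 cells, was led by Clec3b, Lum, Fmo2, Mfap4 and Fbln1. Lum, a collagen-binding proteoglycan gene, was at 960 and 450 CPM there and at or below 40 CPM in subclusters 1, 3 and 6. Pi16, known from adventitial fibroblasts, was at 182 and 218 CPM. Subcluster 6, with 27 cells, was led by Olr1, Timp1, Gfpt2 and Fbln2 and had the highest levels of myofibroblast genes among the 4. Acta2, smooth muscle actin, was at 1228 and 1141 CPM in subcluster 6, against 279 and 182 CPM in subcluster 1 and 33.1 and 80.2 CPM in subcluster 4. Tagln, its calponin-related partner, was at 3691 and 2622 CPM, and Timp1, an inhibitor of matrix proteases, at 2361 and 1708 CPM in subcluster 6.

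Subcluster 1 held 50.9% (41.0 to 60.8) of Col3a1-rich cells in the control library but 25.5% (17.6 to 34.6) in the haplodeficient one. Subcluster 4 held 12.3% (6.69 to 20.1) and 29.1% (20.8 to 38.5). Subcluster 3 held 23.6% and 33.6%, and subcluster 6 held 13.2% and 11.8%, with intervals that overlapped. Because genes that differ between the libraries also took part in the clustering, these shares are descriptions. The ratio with every subcluster at the same weight in both libraries is given beside the levels that moved most with this mixture.

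Genes were compared between libraries on UMIs summed over the Col3a1-rich cells, as the log2 ratio of haplodeficient over control. A pseudocount of 5 CPM was added on both sides, so ratios of low genes are understated. A gene was past the size rule when the ratio was at least 2-fold and the exact Poisson intervals of its CPM values did not overlap. Of 3370 genes with enough UMIs (30 or more in all, and a mean of 50 CPM or more), 108 (3.2%) were past the rule, of which 38 (1.13%) were higher with haplodeficiency and 70 (2.08%) were lower. The median log2 ratio of all these genes was 0.03. With the selection genes left out, 1785 of 3366 genes had ratios above 0 and 1581 below. Over all 323 selected cells, 137 of 3859 genes (3.55%) were past the rule, 44 higher (1.14%) and 93 lower (2.41%). With the subclusters at the same weight in both libraries that number was 68. Only 39 of the 137 remained, so levels below are those of Col3a1-rich cells unless all selected cells are named.

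Proximal tubule genes were among the lowest and macrophage genes among the highest, and both moved as they did in free RNA. Kap, an androgen-regulated proximal tubule gene, had 171 UMIs in control and 2 UMIs in haplodeficient Col3a1-rich cells. Slc34a1, the proximal phosphate transporter, had 59 and 1 UMIs, Fxyd2 had 138 and 23, and Atp1b1 had 75 and 14, these being sodium pump subunit genes. All 5 proximal tubule markers with enough UMIs were past the rule in the lower direction. The 11 proximal tubule markers summed to 1639 CPM in control and 311 CPM in haplodeficient Col3a1-rich cells, and 0 and 3 of them had no UMI. Without cells of 10 or more proximal tubule UMIs the log2 ratios of Slc34a1, Fxyd2 and Atp1b1 were -2.63, -1.47 and -1.80, against -4.14, -2.88 and -2.61 with them.

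Lyz2, the macrophage lysozyme gene, had 15 and 299 UMIs, and 86.6% of the haplodeficient UMIs lay in 1 cell. C1qb, a complement subunit gene of macrophages, had 7 and 90 UMIs, with 67.8% in 1 cell. The galectin gene Lgals3 had 19 and 116 UMIs, with 86.2% in 1 cell, and without the top cell of each library its log2 ratio was -0.23. Fabp5, a fatty acid binding protein gene, had 16 and 129 UMIs, with 47.3% in 1 cell. Without the cells of highest doublet score the log2 ratios of Lyz2 and Fabp5 were 0.77 and 0.87, against 3.60 and 2.33. The 14 leukocyte markers summed to 106 and 999 CPM, of which subcluster 4 had 281 and 2932 CPM. Their part in the results below was not tested beyond leaving out the cells with 3 or more leukocyte UMIs. Without those cells the log2 ratio of Lyz2 was 0.33, that of C1qb -0.13 and that of Lgals3 -0.83, and the ratios of H2-Aa, Cd74, Ifit3, Eln and Smoc2 without them are given where these genes are described.

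Of the 70 lower genes, 20 had at least 20% of their UMIs expected from free RNA in at least 1 library, and 4 were mitochondrial. Of the 38 higher genes, 6 had such a free RNA part. The direction was the same in all 4 subclusters for 49 of the 70 lower and 25 of the 38 higher genes, against 688 of all 3370 genes (20.4%). The size rule and these directions used the same UMIs. More agreement than among all genes was therefore largely set by the choice of genes, and these counts are descriptions.

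Apart from tubule genes and genes of the lists, the lowest were St6galnac5, Prr16 and 6530403H02Rik. St6galnac5, a sialyltransferase gene, had 51 control UMIs in 25 cells and 9 haplodeficient UMIs in 6 cells (-2.55), with less in each of the 4 subclusters. Prr16 had 70 and 18 UMIs (-2.22), and 6530403H02Rik 61 and 15 UMIs (-2.24). With equal subcluster weights these log2 ratios were -2.04 for St6galnac5, -1.64 for Prr16 and -1.45 for 6530403H02Rik. At most 0.127% of the UMIs of these 3 genes were expected from free RNA. Among the higher genes, F830016B08Rik, an interferon-inducible GTPase family gene that shares sequence with its relatives, had 16 and 94 UMIs (1.89), with the highest level in subcluster 4, at 82.7 and 285 CPM, and a log2 ratio of 1.47 with equal subcluster weights.

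**Figure D3:**
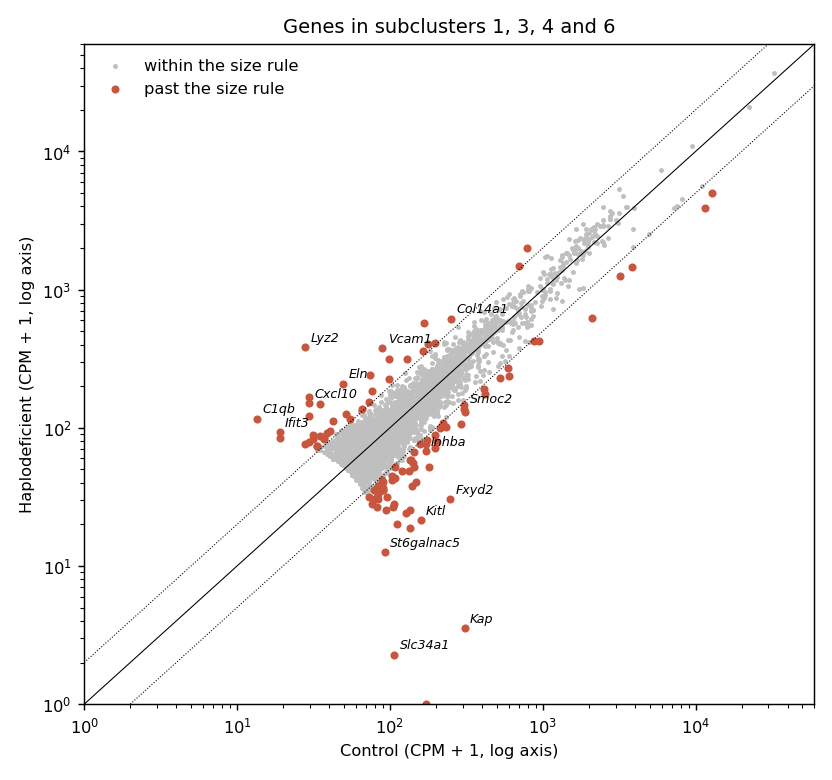
Level of 3370 genes in Col3a1-rich cells of the control (x axis) and haplodeficient (y axis) library, as CPM plus 1 on log axes, with the diagonal (solid) and 2-fold lines (dotted). The 108 genes past the size rule are in red. Kap and Slc34a1 lie among the lowest and Lyz2 farthest above the diagonal.

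No activation gene of myofibroblasts was past the rule as higher in haplodeficient Col3a1-rich cells. Of 20 activation genes with enough UMIs, 0 were past the rule as higher and 2 as lower (against 3.2% of all genes in either direction), 5 had ratios above 0 and 15 below, and the median log2 ratio was -0.15. Acta2 was at 463 CPM (408 to 523) in control and 475 CPM (428 to 526) in haplodeficient Col3a1-rich cells, a ratio of 1.02 (0.872 to 1.21). For Tagln the levels were 1153 and 1120 CPM, with a ratio of 0.971 (0.876 to 1.08). The fibronectin gene Fn1 was at 1031 and 963 CPM, and Postn, the gene of a matricellular protein of injury, at 91.6 and 61.4 CPM. These levels differed by less than the size rule, and the intervals of Acta2, Tagln, Fn1 and Postn overlapped between libraries. The levels of Acta2 and Tagln rested in part on single cells, as 1 control cell held 24.0% of the control Acta2 UMIs and 1 held 30.5% of the control Tagln UMIs. Without the cells of highest doublet score the log2 ratio of Acta2 was 0.67 in place of 0.03, that of Tagln 0.72 in place of -0.04, and that of the protease inhibitor gene Timp1 0.56 in place of 0.01. Under that setting 7 of the 20 activation genes were above 0, and their median was -0.13.

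Inhba, the activin A subunit gene, was past the rule in the lower direction. Control cells had 171 CPM (138 to 209) and haplodeficient cells 66.5 CPM (49.7 to 87.3), a log2 ratio of -1.30 that ranged from -1.56 to -1.22 over all settings tried. By subcluster it was 186 and 22.7 CPM in subcluster 1, 40.9 and 49.5 in subcluster 3, 116 and 53.5 in subcluster 4, and 300 and 158 in subcluster 6. Lower values thus lay in 3 of 4 subclusters, with subcluster 1 farthest apart. Thy1, the gene of a surface protein of fibroblasts, was at 80.8 and 30.7 CPM (-1.26), lower in 3 of 4 subclusters. S100a6, a calcium-binding protein gene, had the highest ratio of the list, at 1835 and 2994 CPM (0.70), short of the size rule.

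Over all 323 selected cells the same activation list had a median log2 ratio of 0.43, with 16 of 18 genes above 0. In that list 3 genes were past the rule as higher and 1 as lower, against 1.14% and 2.41% of all genes. Of all 3855 genes outside the selection, 2074 had ratios above 0. Inhba was the lowest of the list, at -1.12. Tagln was the highest there, at 1.34. That median was -0.0056 with the subclusters at the same weight, and subcluster 2, where Tagln was at 3348 and 4472 CPM and Acta2 at 1262 and 1352 CPM, held 12 control and 59 haplodeficient cells. After thinning every cell to 2000 UMIs before selection the median was -0.21.

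Among collagens, Col14a1, Col6a2 and Col6a1 had the highest ratios of haplodeficient over control. Of 15 genes of basement membrane and other non-fibrillar collagens, 10 had ratios above 0, 2 were past the rule as higher (1.13% of all genes were) and 0 as lower, and the median was 0.41. Col14a1, whose product binds collagen fibrils, was at 251 CPM (211 to 297) in control and 617 CPM (563 to 674) in haplodeficient cells (1.28). With equal subcluster weights it was 0.65. Subclusters 3 and 4, at 606 and 678 CPM in the control, held a larger share of the haplodeficient cells, and Col14a1 was higher in each of the 4 subclusters. Col6a2 was at 163 and 357 CPM (1.10) and Col6a1 at 280 and 532 CPM (0.91), both subunits of the microfibrillar type VI collagen. Of the other type VI genes, Col6a3 was at 418 and 589 CPM (0.49) and Col6a4, the lowest of the list, at 131 and 85.7 CPM (-0.58). With equal subcluster weights Col6a2 was at 0.87, short of the rule. The difference in Col6a1 was greatest in subcluster 3, where Col6a1 was at 115 and 617 CPM, while in subcluster 6 it was 343 and 258 CPM.

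The basement membrane genes Col4a1 and Col4a2 were at 1164 and 1439 CPM (0.31) and at 733 and 978 CPM (0.41). Of the fibrillar collagens that took no part in the selection, Col3a1 had a log2 ratio of 0.18 and Col5a1 of 0.67, at 156 and 251 CPM. None of the 4 fibrillar genes with enough UMIs was past the rule, and their median was 0.07. The genes of collagen folding and crosslinking had a median of 0.35 over 12 genes, 9 above 0, with none past the rule. In that group Pcolce, the gene of an enhancer of procollagen cleavage, was at 198 and 321 CPM (0.69), Serpinh1, the collagen chaperone, at 641 and 859 CPM (0.42), and the crosslinking enzyme gene Lox at 120 and 98.5 CPM (-0.28).

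Eln, which encodes elastin, was the elastic fibre gene past the rule. Control cells had 48.5 CPM (31.9 to 70.5) and haplodeficient cells 207 CPM (177 to 242), a ratio of 4.28 (2.83 to 6.69). It was detected in 16 of 106 and 46 of 110 cells, and 28.4% of the haplodeficient UMIs lay in 1 cell. In subclusters 1, 3 and 4 its haplodeficient level was above the control level, at 46.5 and 113, 49.1 and 342, and 49.6 and 276 CPM, and in subcluster 6 it was 51.5 and 25.2 CPM. Over all settings its log2 ratio ranged from 1.45, without cells of 3 or more leukocyte UMIs, to 2.27. Fbn1, the fibrillin scaffold of elastic fibres, was at 327 and 325 CPM, and the median over 13 elastic fibre genes was 0.25.

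Matricellular genes went both ways. Of 21 genes, 11 had ratios above 0 and 10 below (median 0.09). Sparc, the gene of a collagen-binding glycoprotein, was at 3162 and 5364 CPM (0.76). Spp1, osteopontin, was at 4929 and 2527 CPM (-0.96) and the tenascin gene Tnc at 506 and 279 CPM (-0.85). Neither reached the size rule. Smoc2, the gene of a SPARC-related matrix protein, did so in the lower direction, at 305 and 137 CPM (-1.13), with less in each of the 4 subclusters, and was at -0.90 without cells of 3 or more leukocyte UMIs. The ratio of Spp1 was -0.40 without the top cell of each library.

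Proteases, their inhibitors and transforming growth factor β signalling genes had medians near that of all genes. The 16 protease and inhibitor genes had a median of -0.02, and Mmp11, a stromal metalloproteinase gene, was past the rule as lower, at 95.2 and 30.7 CPM (-1.49), with subcluster 3 at 213 and 18 CPM. Timp1 was at 688 and 695 CPM. Among 13 genes of the transforming growth factor β pathway (median -0.09), Skil, a feedback inhibitor, was past the rule as higher, at 53.9 and 114 CPM (1.01, and 0.98 with equal subcluster weights). The ligand gene Tgfb1 was at 147 and 189 CPM and Tgfb2 at 73.6 and 46.1 CPM.

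**Figure D4:**
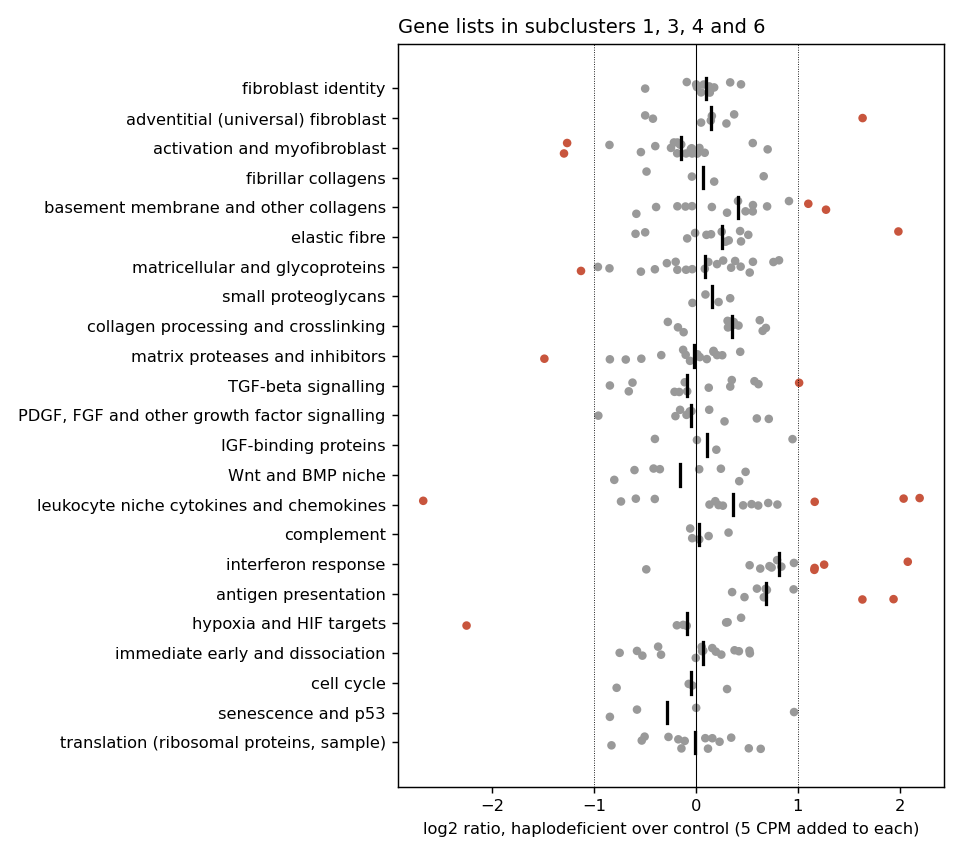
Log2 ratio of haplodeficient over control (x axis, 5 CPM added) for each gene with enough UMIs in Col3a1-rich cells, by gene list, with list medians as black bars, genes past the size rule in red and dotted lines at 2-fold. The interferon response list has a median of 0.82 and the antigen presentation list one of 0.69, and the activation list lies at -0.15.

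Niche genes that act on leukocytes held some of the widest differences. Of 16 genes with enough UMIs, 12 had ratios above 0, 3 were past the rule as higher (Cxcl10, Vcam1 and Il33; 1.13% of all genes were) and 1 as lower (Kitl; 2.08%), and the median was 0.36. Vcam1, the gene of an adhesion molecule that binds leukocyte integrins, was at 88.0 CPM (65.1 to 116) in control and 377 CPM (336 to 423) in haplodeficient cells, a ratio of 4.29 (3.16 to 5.93). It was detected in 23 of 106 and 45 of 110 cells. Its level was 19.4 and 272 CPM in subcluster 1, 147 and 135 in subcluster 3, 132 and 535 in subcluster 4, and 155 and 611 in subcluster 6. Subcluster 3 thus did not share the higher level, and the log2 ratio of 2.04 ranged from 1.62 to 2.24 over the settings tried. In subcluster 1 the 10 endothelial markers summed to 209 and 964 CPM, and the part of endothelial RNA in Vcam1 was not tested.

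Cxcl10, a chemokine gene that interferon induces, had 16 UMIs in 6 control cells and 117 UMIs in 15 haplodeficient cells, at 28.7 and 150 CPM (2.20), and 31.2% and 32.5% of its UMIs lay in 1 cell of each library. Most of these lay in subclusters 1 and 4, at 34.9 and 210 CPM and at 33.1 and 316 CPM. Il33, an alarmin gene, was at 97.0 and 224 CPM (1.17), with higher values in each of the 4 subclusters. Its log2 ratio with equal subcluster weights was 0.68, and subcluster 4, a larger share of the haplodeficient cells, held its highest level, at 281 and 348 CPM.

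Kitl, which encodes the ligand of the KIT receptor of mast and progenitor cells, moved the other way. It had 88 UMIs in 31 control cells and 16 UMIs in 8 haplodeficient cells, at 158 CPM (127 to 195) and 20.5 CPM (11.7 to 33.2), a ratio of 0.130 (0.071 to 0.222). Its level was 194 and 17.0 CPM in subcluster 1, 98.3 and 4.50 in subcluster 3, 232 and 53.5 in subcluster 4, and 103 and 0 in subcluster 6. All 4 subclusters thus had less Kitl in the haplodeficient library. The log2 ratio of -2.68 ranged from -3.30 to -2.39 over the settings, and 0.959% and 9.33% of the UMIs were expected from free RNA. In mural cells Kitl was at 121 and 231 CPM.

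Other chemokine and cytokine genes did not reach the rule. Cxcl14 was at 359 and 214 CPM (-0.74), lower in each of the 4 subclusters. Cxcl12 was at 390 and 257 CPM (-0.59), and its ratio was -0.06 with equal subcluster weights. Subcluster 1 had its highest level. Csf1, the macrophage growth factor gene, was at 41.3 and 58.9 CPM (0.46), and Ccl2, a monocyte chemokine gene with too few UMIs for the rule, had 7 and 46 UMIs.

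**Figure D5:**
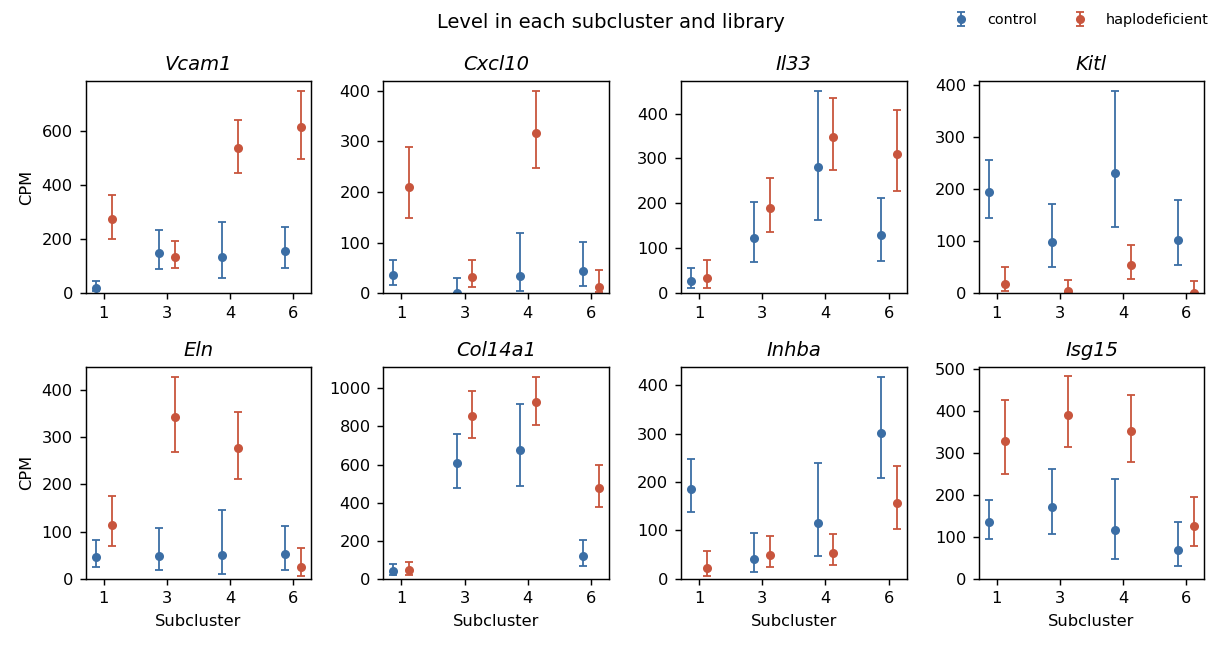
Level (CPM, linear axes from 0) of 8 genes in subclusters 1, 3, 4 and 6 of the control and haplodeficient libraries, with exact Poisson 95% intervals. Kitl is lower in the haplodeficient library in all 4 subclusters, Vcam1 is higher in subclusters 1, 4 and 6, and Eln is higher in subclusters 1, 3 and 4.

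Depth differed between the libraries, so detection was also compared at 1000 UMIs per cell (106 control and 109 haplodeficient cells, with 1 shallower haplodeficient cell left out). Each share is the one expected over all random draws of 1000 UMIs, and its interval takes the expected number of cells rounded to a whole. At this depth the intervals of Vcam1, Kitl, Inhba, Eln and Cxcl10 all overlapped between the libraries. Those of Col14a1 and of Ly6a, an adventitial gene described below, stayed apart. The control share of Col14a1 was 16.3% (9.63 to 24.4) and its haplodeficient share 34.9% (25.99 to 44.6). For Ly6a these shares were 4.81% (1.55 to 10.7) and 18.9% (12.3 to 27.9), and thick limb cells had it in 74.2% and 94.6%. Vcam1 was then expected in 6.25% (2.70 to 13.1) of Col3a1-rich cells in the control library and 15.8% (9.36 to 23.8) in the haplodeficient library, against 21.7% and 40.9% of the unthinned cells. Thick limb cells had it in 1.72% and 1.93%, at medians of 13265.5 and 12363 UMIs before thinning, and in 10.1% and 8.40% unthinned. Leukocytes had Vcam1 in 5.56% and 4.50% at 1000 UMIs. Kitl was expected in 11.0% (5.99 to 18.9) and 1.67% (0.223 to 6.47), against 29.2% and 7.27% unthinned. In thick limb cells Kitl was expected in 1.73% and 2.39%, and unthinned in 17.8% and 29.3% of them.

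For Inhba the control share was 12.9% (7.41 to 21.2) and the haplodeficient share 5.10% (2.05 to 11.6), with overlapping intervals, against 37.7% and 24.5% unthinned and 0.053% and 0.038% of thick limb cells. Eln was expected in 4.6% (1.55 to 10.7) and 14.1% (7.91 to 21.7), against 15.1% and 41.8% unthinned and 0.061% and 0.211% of thick limb cells. Acta2 was expected in 15.4% and 17.1% of Col3a1-rich cells, against 30.2% and 34.5% unthinned. Cxcl10 was expected in 1.81% (0.229 to 6.65) and 7.01% (3.22 to 14.0), against 5.66% and 13.6% unthinned. Thick limb cells had it in 2.73% (1.78 to 4.08) and 3.72% (2.57 to 5.18) and leukocytes in 2.94% and 3.53%, so the control share lay below that of thick limb cells and the haplodeficient interval overlapped theirs.

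None of 10 growth factor genes, 8 Wnt and BMP genes and 4 genes of insulin-like growth factor binding proteins was past the rule. Hgf, a growth factor gene for tubular epithelium, was at 136 and 67.8 CPM (-0.96), Ptn, pleiotrophin, at 492 and 811 CPM (0.72, and 0.30 with equal subcluster weights), and Igf1 at 43.1 and 67.8 CPM (0.60, and 0.12 without the cells of highest doublet score). Wnt4 was at 259 and 365 CPM (0.49, and 0.92 with equal subcluster weights) and the Wnt inhibitor gene Dkk2 at 445 and 253 CPM (-0.80). Igfbp5, which binds insulin-like growth factors, was at 183 and 358 CPM (0.95), with higher values in each of the 4 subclusters and a ratio of 1.27 with equal subcluster weights.

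Interferon response genes were mostly above 0 in the haplodeficient Col3a1-rich cells. Of 12 with enough UMIs, 11 had ratios above 0, 4 were past the rule as higher (1.13% of all genes were) and 0 as lower, and the median was 0.82 against 0.03 for all genes. Isg15, a ubiquitin-like protein gene, had 127 CPM (99.6 to 161) in control and 312 CPM (274 to 354) in haplodeficient cells, a ratio of 2.45 (1.87 to 3.24). Bst2, which encodes the antiviral protein tetherin, was at 178 and 404 CPM (1.16) and Xaf1 at 37.7 and 90.8 CPM (1.17, and 0.93 with equal subcluster weights). Ifit3 had 10 UMIs in 4 control cells and 72 UMIs in 27 haplodeficient cells (2.08), and its ratio was 3.09 without cells of 3 or more leukocyte UMIs. All 4 of these had higher values in each of the 4 subclusters. Ifitm3 was at 1648 and 2764 CPM (0.74) and Iigp1 at 386 and 695 CPM (0.84), short of the rule, and Ifi27 was at 206 and 146 CPM (-0.49). Outside the list, the interferon-induced gene Ifitm1 was past the rule as lower (-1.15), with less in 3 of the 4 subclusters. At 1000 UMIs per cell, Isg15 was expected in 9.17% (4.62 to 16.7) and 22.2% (14.6 to 31.0) of Col3a1-rich cells, with overlapping intervals. Unthinned, 25.5% and 56.4% of them had it. Leukocytes had 7.17% (5.57 to 8.96) and 12% (10.8 to 13.3) at 1000 UMIs, at medians of 6247 and 4388 UMIs before thinning. Thick limb cells had 2.33% (1.41 to 3.53) and 5.75% (4.31 to 7.48). In both of these cell types the intervals did not overlap. A higher haplodeficient share of Isg15 was thus not confined to Col3a1-rich cells.

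Stretches upstream of 4 interferon-inducible genes past the rule, Isg15, Ifit3, Bst2 and Cxcl10, are shown because they hold the core of interferon-stimulated response elements, that is GAAA, 2 bases of any kind (NN) and GAAA again. The core is in capitals, reads TTTC, NN, TTTC where it lies on the other strand, and overlapping matches are joined. The stretches are from RefSeq on GRCm38.p6, written along the gene's strand, for Isg15 (chr4:156200845-156200926, minus strand), Ifit3 (chr19:34583343-34583446, plus strand), Bst2 (chr8:71537557-71537632, minus strand) and Cxcl10 (chr5:92349063-92349132, minus strand).
Isg15: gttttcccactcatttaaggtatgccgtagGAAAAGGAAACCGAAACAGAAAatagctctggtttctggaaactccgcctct
Ifit3: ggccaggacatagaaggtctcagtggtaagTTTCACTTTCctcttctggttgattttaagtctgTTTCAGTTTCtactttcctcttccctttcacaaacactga
Bst2: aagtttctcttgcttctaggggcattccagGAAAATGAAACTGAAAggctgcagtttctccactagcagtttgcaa
Cxcl10: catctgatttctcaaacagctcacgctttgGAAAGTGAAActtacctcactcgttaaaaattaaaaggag

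Isg15 holds 3 overlapping matches, the first starting 78 bases before the gene's start, Ifit3 and Bst2 hold 2 each, and Cxcl10 holds 1, 213 bases before the start. Mndal, an interferon-inducible gene at 75.4 and 183 CPM (1.22), also holds the motif upstream and is not printed, while Xaf1 and Eif2ak2, likewise past the rule, have entries in the table without it. Over both strands of the 250 bases upstream, 936 of 27025 genes (3.46%) in the table hold the motif. Only 22 of the 38 higher genes had an entry in the table, so the share over those genes is not given. A match describes the letters and not the binding of a factor.

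Antigen presentation genes had ratios above 0 in 9 of 9 cases (median 0.69), against 1785 of all 3366 genes outside the selection. Of the 9, 2 were past the rule as higher (1.13% of all genes were). The class I genes H2-D1 and B2m were at 356 and 580 CPM (0.70) and at 584 and 887 CPM (0.60), and H2-K1 at 300 and 385 CPM (0.36). The 2 genes past the rule were class II genes of leukocytes. H2-Aa had 10 and 65 UMIs (1.94), 100% and 50.9% of them were expected from free RNA, and without the cells with 3 or more leukocyte UMIs its log2 ratio was 0.51. Cd74 had 41 and 187 UMIs (1.64), and without the cells with 3 or more leukocyte UMIs its log2 ratio was -0.95.

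Among the prolyl hydroxylase genes and listed hypoxia targets with enough UMIs, only Ndrg1 was past the rule. Egln3, the floxed gene, had 1 UMI in control and 5 UMIs in haplodeficient Col3a1-rich cells, too few for a comparison. Egln1 was at 44.9 and 56.3 CPM and Egln2 at 39.5 and 32.0 CPM. Hif1a was at 80.8 and 64.0 CPM and Epas1, which encodes HIF-2α, at 86.2 and 96.0 CPM. Epo, erythropoietin, had 0 and 3 UMIs, and 0 UMIs allow up to 5.39 CPM in the control. Of 19 hypoxia target genes, 7 had enough UMIs (median -0.09). Among these 7, Ndrg1 was past the rule as lower, with 75 and 19 UMIs (-2.25), of which 41.1% and 59.9% were expected from free RNA. Its ratio was -1.32 without cells of 10 or more proximal tubule UMIs.

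Of the adventitial genes, Ly6a, the Sca-1 antigen, was at 97.0 and 312 CPM (1.64), with 43.0% and 28.0% of its UMIs expected from free RNA and a ratio of 2.64 without the cells of highest doublet score. Pi16 was at 71.8 and 94.7 CPM (0.38), and 1 cell held 43.2% of its haplodeficient UMIs. The ratio of Pi16 was below 0 in 3 of the settings tried, at -0.27 with equal subcluster weights, -0.48 without cells of 10 or more proximal tubule UMIs and -0.10 without the top cell of each library. None of the 12 fibroblast identity genes outside the selection was past the rule, and their median was 0.10 (-0.16 with equal subcluster weights and -0.035 without cells of 10 or more proximal tubule UMIs).

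Fos, Jun and other immediate early genes that dissociation induces had a median of 0.07 over the 16 listed genes and none past the rule. Egr2, an immediate early gene outside this list, was past the rule as higher (1.39), with higher values in each of the 4 subclusters. Fos was at 2751 and 3272 CPM and Jun at 2153 and 2467 CPM. A sample of 14 ribosomal protein genes had a median of -0.01, while Rpl29, which has many near-identical copies and is therefore uncertain, was at 167 and 572 CPM (1.75). The median mitochondrial share was 5.45% in control and 2.99% in haplodeficient Col3a1-rich cells. Plvap, a gene of fenestrated endothelium, was past the rule at 41.3 and 111 CPM (1.33, and 0.71 without cells of 10 or more proximal tubule UMIs), and the 10 endothelial markers summed to 305 and 531 CPM. In subcluster 1 these markers summed to 209 and 964 CPM and in subcluster 3 to 409 and 423 CPM. The sums were 248 and 339 CPM in subcluster 4 and 438 and 473 CPM in subcluster 6. The part of endothelial RNA in these values was not tested.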

How the data were processed

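Single-cell RNA was measured in 1 control and 1 haplodeficient library with droplet 3′ chemistry, per the labels' protocols. The deposited values are raw UMI counts of genes in barcodes, which the authors obtained with Cell Ranger 4, per the file headers, on mm10, per the submitters' processing notes. Hashtags were not used here.

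Barcodes were retained from 500 UMIs and 200 genes upward, with a mitochondrial limit of 50%. Selected cells were clustered with scanpy 1.11.5 and leidenalg 0.10.2 (1000 variable genes without mitochondrial and selection genes, 15 components, 15 neighbours, resolution 0.5). Doublets were scored with Scrublet but not removed. UMIs were summed per library and scaled to CPM, with exact Poisson intervals for levels, Clopper-Pearson intervals for shares and conditional binomial intervals for ratios. UMIs expected from free RNA came from barcodes of at most 100 UMIs.

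Genes named are the 10 highest and 10 lowest past the size rule, from each list those past it, its 3 highest, 3 lowest and first 4, the 15 highest over other cells, the leading genes of subclusters, and Egln1, Egln2, Egln3, Hif1a, Epas1 and Epo. Some genes under this rule are not reported here. Other genes named were chosen after their values were seen. The selection rule and gene lists were chosen with earlier results of these data known. Shares of cells at 1000 UMIs were computed as the expectation over random draws, a choice made after seeing the data. The comparison was run on simulated counts drawn from the same Poisson model as its intervals. That run held no spread between cells or animals and cannot speak to it. Alternatives covered pseudocounts, gene minimums, scaling, cell filters, doublets, thinning, free RNA and subcluster weights.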

Additional observations from a re-analysis of the deposited data

How the results depend on the processing

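With 1 library per group no replicate could be left out, and depth limits low genes. No paired analysis was possible because each group has 1 library. Genes past the size rule numbered 461 over all selected cells and 223 over Col3a1-rich cells with a minimum of 10 CPM, 614 and 288 with no minimum but 1 UMI in each library, and 68 over all selected cells with equal subcluster weights. The other 24 counts lay within 1.5 times. The difference in the share of selected cells was -0.0084 points with a mitochondrial limit of 25% and -0.024 points for Col3a1-rich cells. It was 0.425 points among cells of 2000 UMIs or more and 0.421 points after thinning to 2000 UMIs.

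Medians that changed sign, in Col3a1-rich cells, were those of the Wnt and BMP list (0.030 with no minimum, 0.071 with equal weights), fibroblast identity (-0.16 with equal weights, -0.035 without cells of 10 or more proximal tubule UMIs) and adventitial genes (-0.11 and -0.0067 under the same settings). Over all selected cells the activation median was -0.0027 with every cell at equal weight, -0.21 after thinning and -0.0056 with equal subcluster weights.

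Among single genes, Lgals3 was -0.42 without cells of highest doublet score, -0.48 after thinning, -0.83 without cells of 3 or more leukocyte UMIs and -0.23 without its top cells, and C1qb and Cd74 were -0.13 and -0.95 without the leukocyte UMIs. Acta2, Tagln and Timp1 were 0.67, 0.72 and 0.56 without cells of highest doublet score, against 0.03, -0.04 and 0.01, and Pi16, at 0.38, was -0.27 with equal subcluster weights. Over all selected cells, Igfbp2 was -0.11 after thinning and -0.12 with equal weights, Clic5 -0.015 with equal weights, and Havcr1 0.94 without cells of 10 or more proximal tubule UMIs. Settings that leave out Col3a1-rich cells, or cells by leukocyte or tubule UMIs, were chosen after seeing the data. The cause of these changes was not tested.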
